A study of Mus musculus with 2 samples.

Results

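PKR and the other eIF2 kinases were followed in mouse soft-tissue sarcoma cells with a hairpin against the circular RNA circCsnk1g3, through 8 genes: the kinase genes Eif2ak1, Eif2ak2, Eif2ak3 and Eif2ak4, the substrate genes Eif2s1 and Eif2s2, the PKR activator gene Prkra and the phosphatase subunit gene Ppp1r15b. They were picked by gene symbol for their place in 1 pathway, and all 8 were found among the 25509 genes of the deposited count table and were among the 12941 genes compared, those that reached 10 counts in one of the libraries. The cells were mesenchymal stem cells of the C57BL/6 strain, p53-/- and overexpressing Ccne1, which had grown as subcutaneous tumors in primary recipient mice, had been seeded in the lungs of secondary recipients and had been recovered from lung foci. They were then transduced with a control hairpin (shCTR) or with a hairpin against circCsnk1g3 (shcircCsnk1g3). Both groups thus carry the p53 deletion, the Ccne1 transgene and a lentiviral hairpin, and each group is a single poly(A) RNA-seq library. With 1 library per group, neither replicate error nor a p-value could be given, and a difference between the libraries cannot be told apart from a difference between any 2 cultures.

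The eIF2 kinases are stress sensors that share 1 substrate. HRI (Eif2ak1) responds to heme shortage and to mitochondrial stress, PKR (Eif2ak2) to double-stranded RNA, PERK (Eif2ak3) to unfolded proteins in the endoplasmic reticulum, and GCN2 (Eif2ak4) to amino acid shortage and stalled ribosomes. Each phosphorylates the alpha subunit of the translation initiation factor eIF2, which then blocks its own exchange factor, eIF2B, so that general protein synthesis falls while a few mRNAs such as that of Atf4 are translated more. PKR is also the product of an interferon-stimulated gene. The study asked whether circCsnk1g3 restrains interferon signals through cytosolic RNA sensors, with PKR as 1 candidate. By RTqPCR, it found no significant loss of the response to circCsnk1g3 silencing in PKR knockout cells. With RIG-I silenced the response was largely lost, and the authors describe PKR as only marginally involved. The libraries measure transcripts only, so neither kinase activity nor the phosphorylation of eIF2 was observed.

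Eif2ak2 was the member with the largest difference between the libraries, so its promoter is shown, from RefSeq on GRCm38.p6, 250 bases before to 50 bases after the RefSeq start of the gene, on the minus strand at chr17:78882523-78882822. The capitals mark GAAA, any 2 bases and GAAA again, the core of the interferon-stimulated response element (ISRE), which starts at base 19 counted from that start.
Eif2ak2: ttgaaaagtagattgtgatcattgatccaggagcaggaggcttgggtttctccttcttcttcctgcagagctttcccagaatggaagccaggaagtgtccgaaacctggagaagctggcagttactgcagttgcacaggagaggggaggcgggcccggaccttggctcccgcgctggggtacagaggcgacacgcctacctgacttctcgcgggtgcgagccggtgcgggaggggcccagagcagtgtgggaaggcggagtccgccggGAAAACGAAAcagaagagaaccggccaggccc

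These letters, read on both strands, occurred in 1131 of 32851 RefSeq promoter windows of this length (3.44%). Of the 7 members with a window, Eif2ak2 and Eif2s1 held them. The short stretches below allow the Eif2ak2 letters to be compared with those of Eif2s1 (plus strand, chr12:78861850-78861879) and of the 4 genes, out of 8 listed for other sensors of double-stranded RNA, that matched a window, Ddx58 (minus strand, chr4:40239804-40239833), Ifih1 (minus strand, chr2:62646206-62646233), Oas3 (minus strand, chr5:120777715-120777744) and Oas1a (minus strand, chr5:120907520-120907555), with matches on either strand in capitals.
Eif2ak2: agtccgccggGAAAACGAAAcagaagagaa
Eif2s1: cctggagcaaGAAACAGAAActtacctctc
Ddx58: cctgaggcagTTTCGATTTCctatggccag
Ifih1: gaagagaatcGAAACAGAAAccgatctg
Oas3: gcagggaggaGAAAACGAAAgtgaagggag
Oas1a: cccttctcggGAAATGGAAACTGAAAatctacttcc

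The ISRE core of Oas3 has the same 10 letters as that of Eif2ak2. That of Eif2s1 has the same 10 letters as that of Ifih1. It starts 212 bases before the RefSeq start used for the window, which lies downstream of the GENCODE start of Eif2s1 given below, so that the letters fall inside the gene as GENCODE places it. All 4 of these sensor genes held the letters, whereas none of the 3 windows of Adar, an interferon-stimulated gene described below, did. A match of letters does not show that a factor binds there. In this comparison, 77 of the 367 compared genes with such a match had a log2 fold change of 0.32 or more, shcircCsnk1g3 over shCTR (21.0%), against 1090 of 9693 compared genes with a window and no match (11.2%). The shares with a difference as large in the other direction were 12.3% and 12.1%. Eif2ak2 is itself among the 367 genes, and the groups were not matched for counts. What lies behind the difference in shares was not tested. A difference of 0.32 on the log2 scale is used throughout as the limit for calling a gene higher or lower. The windows of the members held no match to the letters TGATGNAA of the CARE element bound by ATF4, which 3.97% of all windows held.

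The 2 libraries held 38792143 counts (shcircCsnk1g3) and 42709996 counts (shCTR), and over all compared genes the log2 fold change had a median of 0.00. The targeted gene Csnk1g3 had 2159 counts with shcircCsnk1g3 and 2411 with shCTR, for a log2 fold change of -0.05 (-0.14 to 0.03), but a circular RNA has no poly(A) tail, and its depletion could not be read from these counts. Trp53 counts were 3841 and 4334, and Ccne1 counts 893 and 963. The gene totals do not tell a deleted or a transgenic transcript from a normal one. Of 8 mesenchymal marker genes, 7 were expressed in both libraries (94 to 225330 counts with shcircCsnk1g3 and 146 to 282350 with shCTR) and Thy1 was at or near 0. The summed level of the 8 was 8447 CPM (counts per 1000000 counts of the scaled library) with shcircCsnk1g3 and 9219 CPM with shCTR. Of the 7, 6 had log2 intervals below 0 and 1 above it, with a median of -0.31. The leukocyte markers summed to 3 and 9 counts, the lung epithelial markers to 1 and 6, and the endothelial markers to 17 and 24. Of the erythroid markers, Hbb-bs was at 0 in both libraries and Hba-a1 had 423 and 604 counts. The part of these differences in the results below was not tested.

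Levels are given as CPM after TMM scaling, which evens out the libraries over the bulk of genes, and as CPM per kilobase of annotated exon where genes are compared. Fold changes are shcircCsnk1g3 over shCTR with a prior count of 2. The range after each value is the 95% exact interval from the counts. It covers counting error only, and reads are not independent molecules, because amplification duplicates were not marked by molecular identifiers.

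In the control library, the kinase transcripts lay within a narrow range. Eif2ak1 stood at 9.05 CPM per kilobase (8.67 to 9.44) and Eif2ak2 at 8.93 (8.54 to 9.34), with overlapping intervals, so that their order per kilobase could not be told. Eif2ak4 stood at 5.17 (4.92 to 5.43) and Eif2ak3 at 4.92 (4.65 to 5.20), and these intervals overlapped as well. In the shcircCsnk1g3 library, Eif2ak2 stood at 12.04 CPM per kilobase (11.6 to 12.5), above Eif2ak1 at 7.97 (7.61 to 8.35), Eif2ak4 at 5.79 (5.52 to 6.07) and Eif2ak3 at 4.74 (4.47 to 5.03), with no overlap between neighbours in this order. The members that are not kinases kept their places. Eif2s2 was first with 36.1 CPM per kilobase in the control and 39.1 in the silenced cells, followed by Ppp1r15b (30.1 and 32.9) and Eif2s1 (22.1 and 22.0). Prkra stood at 6.69 and 6.76, between the leading pair of kinases and the other two. The length used is that of all annotated exons, which is longer than most single transcripts, so the order between genes depends on it more than the comparison of libraries does.

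**Figure D1:**
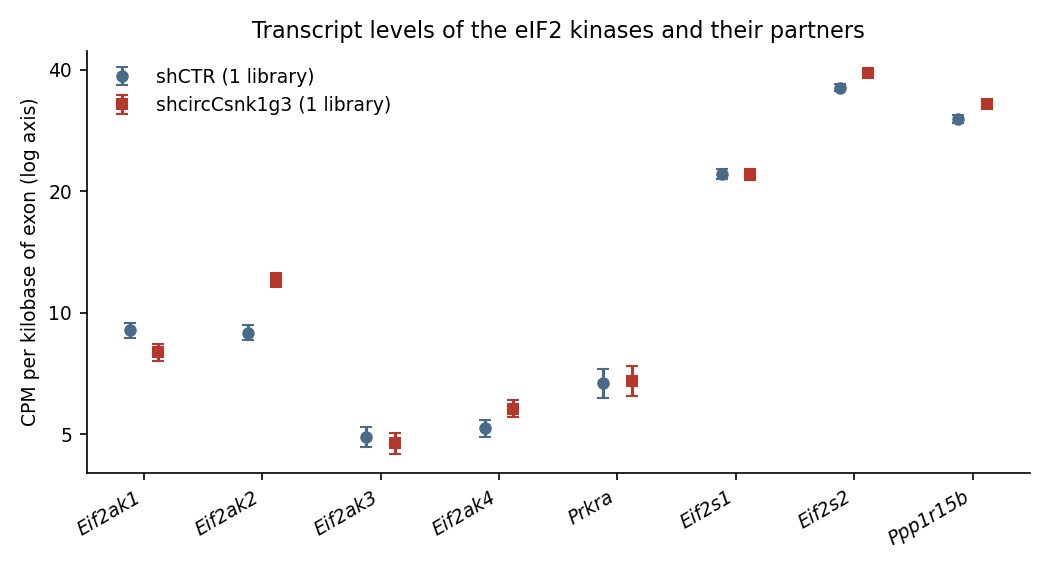
Transcript level of the 8 genes in each library, in CPM per kilobase of annotated exon on a log axis, with circles for shCTR and squares for shcircCsnk1g3 (1 library each) and bars for 95% exact counting intervals. Eif2ak2 is at 8.93 in the control and 12.04 in the silenced library, while Eif2s1 is at 22.1 and 22.0.

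PKR, the product of Eif2ak2 (ENSMUSG00000024079, chromosome 17, 78852564 to 78882573, minus strand, GRCm38), carries double-stranded RNA-binding domains in front of its kinase domain. Its gene had 2415 counts with shcircCsnk1g3 and 1929 with shCTR, or 61.6 CPM (59.2 to 64.1) against 45.7 CPM (43.6 to 47.7). The intervals of the libraries did not overlap, and the fold was 1.35 (1.27 to 1.43). Its log2 fold change was 0.43 (0.34 to 0.52), and 4.22% of the 10662 genes whose counts summed to 200 or more had a larger one. Eif2ak2 was the only member called higher by the limit of 0.32, and none was called lower. Of all compared genes, 12.3% were called higher and 13.1% lower. Of the 10662 genes these shares were 7.79% and 9.06%, and of the 8139 genes with a mean of 500 to 12000 counts, which spans the members, they were 5.73% and 7.11%. As a share, 1 of 8 members is close to that of all compared genes. At the start of Eif2ak2 lies Gm26637, a long noncoding RNA gene on the opposite strand that overlaps 174 of its exon bases. Gm26637, looked up because of this overlap, had 26 counts with shcircCsnk1g3 and 9 with shCTR, a log2 fold change of 1.44 (0.50 to 2.92). The kit keeps the strand, but whether the counting used it is not stated, so the reads of the overlap cannot be told apart. The counts of Gm26637 were few beside those of Eif2ak2.

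The other kinases differed less, and not in 1 direction. Eif2ak1 (ENSMUSG00000029613, chromosome 5, 143817788 to 143904251, plus strand) encodes HRI, which in red cell precursors matches globin synthesis to heme. Its counts were 1773 with shcircCsnk1g3 and 2168 with shCTR, or 45.2 CPM (43.1 to 47.4) against 51.3 CPM (49.2 to 53.5). It was the lowest member (log2 fold change -0.18, -0.27 to -0.09), and the library intervals did not overlap. Its exons overlap by 487 bases those of Aimp2 on the opposite strand, which was looked up for this reason and had 1549 and 1790 counts (log2 fold change -0.10, -0.20 to -0.00).

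Eif2ak4 (ENSMUSG00000005102, chromosome 2, 118388618 to 118475234, plus strand) encodes GCN2, the sensor of uncharged tRNA. It had 1693 counts with shcircCsnk1g3 and 1629 with shCTR, which after scaling gave 43.2 CPM (41.1 to 45.3) and 38.6 CPM (36.7 to 40.5). Its log2 fold change was 0.16 (0.06 to 0.26). Eif2ak3 (ENSMUSG00000031668, chromosome 6, 70844515 to 70905245, plus strand) encodes PERK, the transmembrane kinase of the endoplasmic reticulum. Its 1121 and 1252 counts corresponded to 28.6 CPM (26.9 to 30.3) and 29.6 CPM (28.01 to 31.3). The log2 fold change of -0.05 (-0.17 to 0.07) was within counting error. Its exons share 485 bases with Gm43292 on the opposite strand, which was not analysed here.

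**Figure D2:**
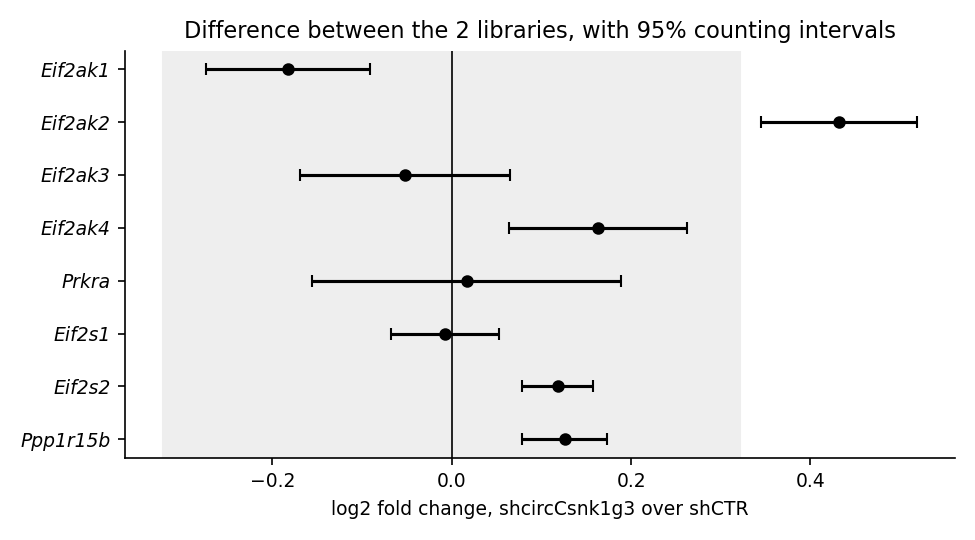
Log2 fold change of each gene, shcircCsnk1g3 over shCTR, with bars for the 95% exact counting interval and a grey band for differences under 0.32. Eif2ak2 at 0.43 lies outside the band with its whole interval, and the other 7 genes, from -0.18 to 0.16, lie within it.

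Set against each other, which removes the scaling of the libraries, the 4 kinases differed in their proportions. The sum of their counts was 7002 with shcircCsnk1g3 and 6978 with shCTR, or 178.6 CPM (174.4 to 182.8) and 165.2 CPM (161.3 to 169.1). Eif2ak2 held 34.5% of these counts (33.4 to 35.6, exact Clopper-Pearson interval) in the silenced cells and 27.6% (26.6 to 28.7) in the control. The share of Eif2ak1 was 25.3% (24.3 to 26.4) with shcircCsnk1g3 and 31.1% (29.98 to 32.2) with shCTR. By counts, HRI led the kinases in the control library and PKR in the silenced one. Eif2ak3 held 16.0% (15.2 to 16.9) and 17.9% (17.0 to 18.9), and Eif2ak4 held 24.2% (23.2 to 25.2) and 23.3% (22.4 to 24.4), a pair of overlapping intervals. For every count of Eif2ak1 there were 1.36 counts of Eif2ak2 (1.28 to 1.45) with shcircCsnk1g3 and 0.890 (0.836 to 0.946) with shCTR. Per kilobase of exon, the share of Eif2ak2 was 39.4% and 31.8%.

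**Figure D3:**
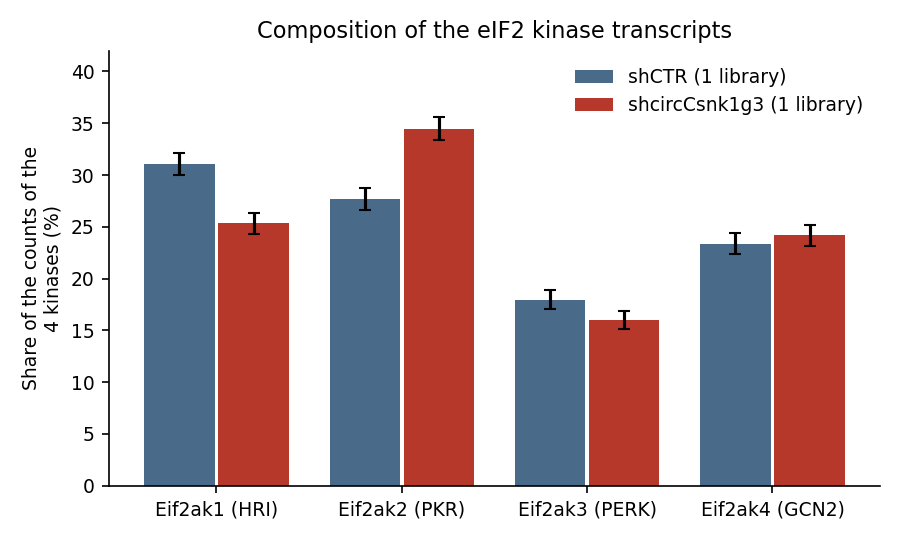
Share of each kinase gene in the summed counts of the 4 kinases, in percent, for the shCTR and the shcircCsnk1g3 library (1 library each), with bars for 95% exact intervals. The share of Eif2ak2 is 27.6% in the control and 34.5% in the silenced library, and that of Eif2ak1 is 31.1% and 25.3%.

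Prkra (ENSMUSG00000002731, chromosome 2, 76629898 to 76648015, minus strand) encodes PACT, a double-stranded RNA-binding protein that can activate PKR without RNA. It had the fewest counts of the members, 538 with shcircCsnk1g3 and 573 with shCTR, or 13.7 CPM (12.6 to 14.9) and 13.6 CPM (12.5 to 14.7). The libraries overlapped, and the log2 fold change was 0.02 (-0.16 to 0.19). The ratio of Prkra to Eif2ak2 counts was 0.223 (0.203 to 0.245) in the silenced cells and 0.297 (0.270 to 0.326) in the control, so there was less activator transcript per kinase transcript with shcircCsnk1g3, by a factor of 0.750 (0.657 to 0.856, from the normal approximation to log counts).

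The substrate side of the pathway differed little. Eif2s1 (ENSMUSG00000021116, chromosome 12, 78861819 to 78887010, plus strand) encodes eIF2 alpha, which carries the phosphorylated serine. Its 4265 and 4618 counts corresponded to 108.8 CPM (105.5 to 112.1) with shcircCsnk1g3 and 109.3 CPM (106.2 to 112.5) with shCTR. The log2 fold change was -0.01 (-0.07 to 0.05), while its RefSeq promoter window holds ISRE letters as that of Eif2ak2 does. The Eif2s1 transcript is 96.8% and 96.6% identical over 949 and 947 bases to the processed pseudogenes Gm12734 and Gm7459. Neither pseudogene is in the deposited count table. The Eif2s1 counts are uncertain as far as reads of these copies could have been counted with it. Eif2s2 (ENSMUSG00000074656, chromosome 2, 154871410 to 154892935, minus strand) encodes eIF2 beta. Its level was 264.4 CPM (259.3 to 269.5) from 10368 counts with shcircCsnk1g3 and 243.6 CPM (238.9 to 248.3) from 10291 counts with shCTR. The log2 fold change was 0.12 (0.08 to 0.16). The gamma subunit gene Eif2s3x, named to complete the trimer, went the other way, with 10314 and 11549 counts (log2 fold change -0.06, -0.09 to -0.02). The ratio of Eif2s2 to Eif2s1 counts was 2.43 (2.35 to 2.52) in the silenced cells and 2.23 (2.15 to 2.31) in the control. Transcripts of PKR per transcript of its substrate, counted as Eif2ak2 over Eif2s1, were 0.566 (0.538 to 0.595) and 0.418 (0.396 to 0.441).

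Ppp1r15b (ENSMUSG00000046062, chromosome 1, 133131143 to 133139783, plus strand) encodes CReP, the constitutive subunit that directs protein phosphatase 1 to eIF2 alpha and so opposes all the kinases. Its counts were 7215 with shcircCsnk1g3 and 7123 with shCTR, or 184.0 CPM (179.8 to 188.3) against 168.6 CPM (164.7 to 172.6). The intervals did not overlap, and the log2 fold change was 0.13 (0.08 to 0.17). Its exons share 640 bases with Gm26616 on the opposite strand, which was not analysed here. Its stress-induced counterpart Ppp1r15a, which encodes GADD34 and is itself a target of the stress response, had 5071 and 3607 counts (log2 fold change 0.60, 0.54 to 0.66). There were 0.703 counts of Ppp1r15a for each of Ppp1r15b (0.678 to 0.729) in the silenced cells and 0.506 (0.486 to 0.527) in the control. By counts the constitutive subunit led in both libraries, whereas per kilobase of exon Ppp1r15a made up 57.2% of the pair with shcircCsnk1g3 and 49.1% with shCTR.

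Over the 8 members, the counting interval lay above 0 for Eif2ak2, Eif2ak4, Eif2s2 and Ppp1r15b, below 0 for Eif2ak1, and included 0 for Eif2ak3, Eif2s1 and Prkra. At the depth of these libraries such intervals are narrow, and among the 8139 genes of like counts 30.9% lay above 0 and 31.5% below it. The shares were 29.5% and 31.0% of the 10662 genes, and 26.9% and 28.2% of all compared genes. The members had a median log2 fold change of 0.07, and without Eif2ak2 it was 0.02.

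**Figure D4:**
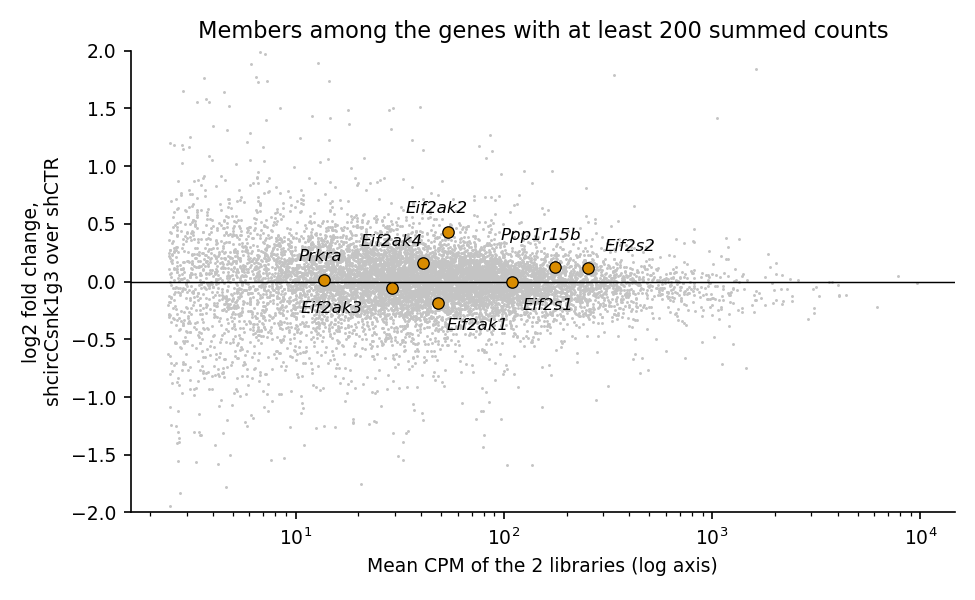
Log2 fold change against mean CPM (log axis) for genes whose counts summed to 200 or more (10653 grey points, with 9 genes beyond the vertical axis) and the 8 members (orange). Eif2ak2, at 0.43, lies in the upper tail of all genes drawn, of which 4.22% were higher, and the other 7 lie between -0.18 and 0.16.

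The wider pathway was divided by role. The calls in each list stand beside those over all compared genes, 12.3% higher and 13.1% lower. Of 9 regulators of PKR, 1 was called higher and none lower by the limit of 0.32, with a median of 0.10. The highest was Adar, which edits double-stranded RNA and so keeps it from PKR and related sensors and is also interferon-stimulated. Adar had 6758 counts with shcircCsnk1g3 and 5280 with shCTR (log2 fold change 0.46, 0.41 to 0.52). The ratio to Eif2ak2 did not differ beyond counting error, at 0.357 counts of Eif2ak2 for each of Adar (0.341 to 0.374) and 0.365 (0.347 to 0.385). The lowest was Dnajc3, whose product p58IPK is a chaperone of the endoplasmic reticulum that was first described as an inhibitor of PKR, with 2247 and 2954 counts (log2 fold change -0.29, -0.37 to -0.21).

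Of 8 genes listed with the other sensors of double-stranded RNA, 7 were called higher, with a median of 0.65 (0.45 over those whose counts summed to 200 or more). The highest of those whose counts summed to 200 or more was Zbp1, a sensor of Z-form nucleic acids, with 197 and 71 counts (log2 fold change 1.55, 1.18 to 1.99). Ddx58, the gene of RIG-I, was compared with Eif2ak2 after its values had been seen. With 1806 and 1100 counts its log2 fold change was 0.82 (0.71 to 0.93), and the ratio of Eif2ak2 to Ddx58 counts was 1.34 (1.26 to 1.42) with shcircCsnk1g3 and 1.75 (1.63 to 1.89) with shCTR. Eif2ak2 was thus higher in the silenced cells but by less than the RIG-I gene. Apart from Ddx58, these sensors had between 10 and 197 counts in a library, far fewer than Eif2ak2.

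Of the 7 regulators of HRI, PERK and GCN2, none was called in either direction (median 0.05). Sesn2, a stress-induced gene tied to GCN2 signals, was the highest with 6756 and 6216 counts and 0.23 (0.18 to 0.28) on the log2 scale. Map3k20, which encodes the ribosome stress kinase ZAK, was the lowest with 1410 and 1854 counts and -0.29 (-0.39 to -0.19). The 5 subunit genes of eIF2B, the exchange factor that phosphorylated eIF2 blocks, all had intervals that included 0, between -0.11 (Eif2b4) and 0.08 (Eif2b1). Of the 7 compared genes listed with the eIF2 complex and its assembly, none was called (median -0.01). This list also holds Eif5, Eif2a and Eif2d, which do not encode subunits of eIF2. The highest of the 7 apart from the members was Eif5, the partner that triggers GTP hydrolysis by eIF2, with 10435 and 10042 counts and 0.16 (0.12 to 0.20). The lowest was Eif2d, an initiation factor that works without eIF2, with 1108 and 1468 counts and -0.30 (-0.41 to -0.18). Eif2s3y, the Y-linked copy of the gamma subunit gene, was at 0 in both libraries. Of 5 phosphatase genes, only Ppp1r15a was called, and the lowest was the catalytic subunit gene Ppp1cb, with 5463 and 6221 counts and -0.08 (-0.13 to -0.03).

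Of 9 stress response targets downstream of eIF2, 5 were called higher and none lower, with a median of 0.50. Of all genes whose counts summed to 200 or more, 7.79% were called higher and 9.06% lower. Ppp1r15a and Sesn2 are among the 9 and were also counted in the lists above. They ranged from 0.04 (0.01 to 0.08) for Chac1, a glutathione-degrading enzyme gene with 13503 and 14133 counts, to 1.22 (1.11 to 1.34) for the transcription factor gene Atf3, with 1978 and 911 counts. These lists were written with earlier results of these data known, and their medians stand beside that of all compared genes, 0.00.

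**Figure D5:**
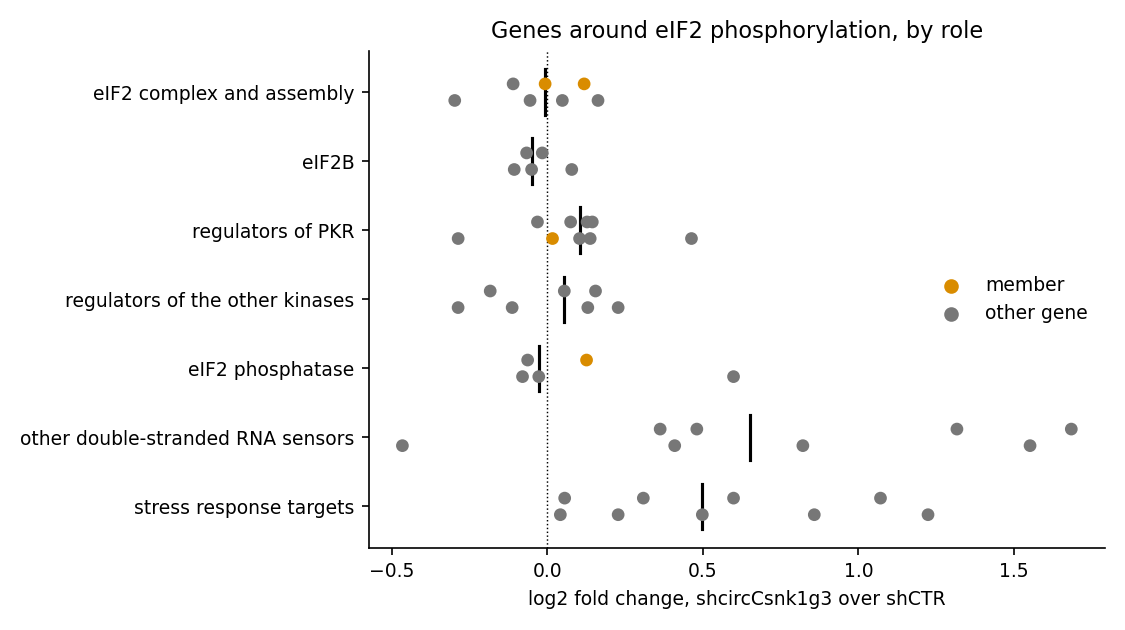
Log2 fold change, shcircCsnk1g3 over shCTR, of each compared gene of 7 lists by role, with members in orange, other genes in grey and a black bar at each list's median (points are offset vertically for legibility). The sensors and the stress response targets have medians of 0.65 and 0.50, and the medians of the other lists lie between -0.05 and 0.10.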

How the data were processed

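One poly(A) library per group was sequenced with a stranded kit. The authors aligned reads to GRCm38 with STAR and estimated gene counts with RSEM, and the deposited estimated counts are whole numbers without normalization. The second table the authors deposited holds TMM-scaled CPM for 11624 genes, all 8 members included, and served as an alternative. The 92 spike-in rows, at 0 in both libraries, were left out. TMM factors were computed with edgeR 4.0.16 in R 4.3.3 after dropping genes that stayed under 10 counts in both libraries, and fold changes used a prior count of 2. Everything else was computed in python 3.11.15 with scipy 1.17.1, after a test on simulated data. Intervals of ratios and shares were Clopper-Pearson, and those of levels were Poisson. No test between conditions was made. Exon lengths and positions came from GENCODE M21, near copies from blastn 2.17.0 (at least 95% identity over 200 bases). Named genes were every member, the highest and lowest other gene of each list with at least 200 summed counts, and the targeted and engineered genes. Other genes are said to have been picked otherwise, and a few listed genes are not reported here. Gcn1, Map3k20 and Dele1 were matched through their older symbols. The members, lists and the limit of 0.32 on the log2 scale were chosen with earlier results of these data known. Alternatives were DESeq2 1.42.0 size factors, total counts with and without 3 abundant transcripts, prior counts of 0.5 and 10, the deposited table, other count filters, and limits of 1.1-fold and 1.5-fold.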

Additional observations from a re-analysis of the deposited data

How the results depend on the processing

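No paired analysis was possible because each group is a single library, and no library could be left out for the same reason. The log2 fold change of Eif2ak2 lay between 0.43 and 0.47 under the 8 alternatives, and 199 of 200 alternative values of the named genes stayed within their counting intervals. The exception was Chac1, at 0.08 with total counts without Yam1, Gm42418 and Lars2. These 3 abundant transcripts differed strongly between the libraries. Yam1 had 2527 CPM with shcircCsnk1g3 and 706 with shCTR, Gm42418 1540 and 576, and Lars2 521 and 151. What lies behind this difference was not tested. Eif2s1, within counting error of 0, ranged from -0.01 to 0.03. The median of the other double-stranded RNA sensors went from 0.65 to 0.45 with at least 200 summed counts and to 0.49 with the deposited table, both of which hold fewer of these genes. The other list medians moved by no more than 0.04, and with total counts those of the eIF2 complex and of the phosphatase genes, near 0, went from -0.01 to 0.02 and from -0.03 to 0.00. Other scalings moved the median over all genes by no more than 0.04. With a limit of 1.1-fold, 2 members were higher and 1 lower, and with 1.5-fold 0 were higher. Of all genes, 3637 were higher and 3590 lower at 1.1-fold, 698 and 817 at 1.5-fold, 2895 and 3023 without a count filter, and 834 and 962 with at least 200 summed counts, against 1598 and 1692. These changes follow from the limits and filters themselves. Per kilobase, the share of Eif2ak2 among the kinases moved to 39.4% with shcircCsnk1g3 and 31.8% with shCTR, since the genes differ in length. Prkra, the member with the fewest counts, had an interval from -0.16 to 0.19, and a difference inside it was not detectable at this depth.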
